A study of Mus musculus with 39 samples.

Results

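Lymph node dendritic cells (DC) of mice given nanoparticles with ovalbumin (OVA) and CpG 24 h earlier were compared with those of mice given the same kind of particles with CpG alone. The 4 libraries, 2 in each group, were chosen by their labels from the 39 libraries of the series and are replicates 1 and 2 of each group in the time course. OVA is a model protein antigen and CpG is a DNA adjuvant that acts through Toll-like receptor 9. All 4 libraries came from wild-type C57BL/6 mice 8 to 12 weeks old, injected under the skin of the hock, and from DC of the popliteal and inguinal nodes, enriched by negative selection and sorted. Beside them the time course holds 2 libraries each of non-immunized mice and of mice injected 12 h earlier with particles of either kind, and a separate experiment holds 5 libraries each of OVA and bovine serum albumin (BSA) particles at 20 h. The series describes mice engrafted with OVA-specific OT-I and OT-II cells, but the labels of these libraries do not say which mice carried them. Nor do they say whether replicates are separate animals, so p-values measure only the spread between these libraries.

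DC that mature raise the chemokine receptor Ccr7 and follow its ligands towards T cells, remodel their cytoskeleton, and make chemokines and surface molecules that T cells read. Signals through NF-kB, including the Relb and Nfkb2 branch downstream of Cd40, are a known part of this programme. CpG alone starts it, and T cells that recognize the antigen can add to it through Cd40 and other contacts.

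The 4 libraries held 612017 and 1329203 counts with CpG alone and 781732 and 827829 counts with OVA, and levels are given as counts per 1000000 of the library total (CPM), which are not corrected for gene length. The labelled cell type was checked against 15 conventional DC markers, each of which had counts in all 4 libraries, with sums of 6214 and 10326 CPM with CpG alone and of 8986 and 8302 CPM with OVA. Genes for class II antigen presentation were abundant, with Cd74 between 1748 and 2871 CPM, while Itgax, which encodes CD11c, lay between 18.8 and 42.3 CPM and the DC transcription factor Zbtb46 between 3.76 and 8.46 CPM. T cell markers were also present at similar sums in all 4 libraries, 8493 and 8498 CPM with CpG alone and 8055 and 8350 CPM with OVA, a list that includes Ccr7. Their sum was above that of the DC markers in CpG-only replicate 1 and OVA replicate 2. In the 10 OVA and BSA libraries of the 20 h experiment the DC markers summed to between 20070 and 33172 CPM and the T cell markers to between 2599 and 5250 CPM. The part of T cell RNA in the 24 h differences was not tested. In bulk RNA fewer cells of a type and less RNA per cell cannot be told apart. By the correlation of log2(CPM + 1) over 8859 genes the OVA libraries resembled each other (0.944) more than the CpG-only libraries did (0.906), and CpG-only replicate 1 lay nearer to both OVA libraries (0.931 and 0.932) than to its own replicate.

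Genes of DC maturation lay at a higher level with OVA than with CpG alone. Summed over the 40 genes of this list, the level was 13410 and 9362 CPM with CpG alone and 23834 and 18248 CPM with OVA. Both OVA libraries stood above both CpG-only libraries. Of the 39 genes tested, 38 had a higher fitted level with OVA, where 47.8% of all 9428 tested genes did, and 29 had an unadjusted p under 0.05 in that direction, where 5.89% of all genes did (4.29% in the other direction, in which 52.2% of all genes lay). None of the 39 had a p under 0.05 in the other direction. The list was chosen with earlier results of these data known, so these counts describe it and are not independent evidence of its direction. The median difference was 0.90 on the log2 scale over the list and -0.02 over all genes. In 34 of the 39 genes the libraries of the groups did not overlap with OVA higher, against 17.9% of all genes.

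No single gene passed the threshold. With edgeR's quasi-likelihood test and Benjamini-Hochberg adjustment over all 9428 genes, 0 genes (0%) had an adjusted p under 0.05, while 959 genes (10.2%) had an unadjusted p under 0.05, 555 with a higher and 404 with a lower level with OVA. The smallest adjusted p were 0.0522 for Camp and 0.0608 for Dnase1l3. DESeq2 called 37 genes (2.25% of those it adjusted). The authors' deposited values are labelled DESeq and were deposited with the same counts. They call the same 37 genes, 34 higher and 3 lower, so this match is not independent evidence. All 37 had an unadjusted p under 0.05 in edgeR, 10 were maturation genes and 3 were neutrophil markers. The count of edgeR calls depended on single libraries, most on CpG-only replicate 1, as given below with the processing. Leaving that library out leaves a lone CpG-only library assumed to vary like the other groups. The median of the maturation list was then 1.20. Differences of single genes are described with their adjusted p from edgeR, and those that DESeq2 called are said to be so. In counts over lists, p under 0.05 is the unadjusted p of edgeR. Over all genes tested at 24 h, 5.89% had such a p with a higher level and 4.29% with a lower one. These are the shares to set beside list counts at 24 h from the fit of all 10 time course libraries. Fits with 1 library left out and DESeq2 had other shares, so their list counts cannot be read against these.

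**Figure D1:**
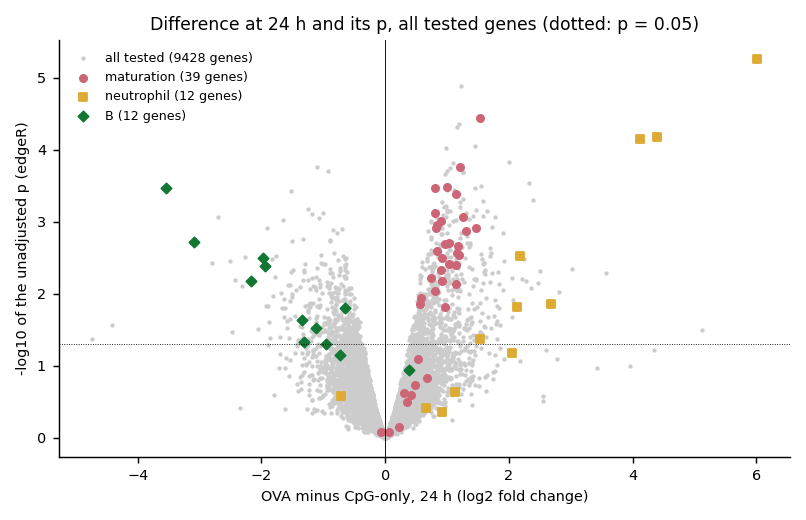
Difference between OVA and CpG-only libraries at 24 h (x axis, log2 fold change) and -log10 of the unadjusted edgeR p (y axis) for the 9428 tested genes, in grey, with the tested genes of the maturation, neutrophil and B cell lists coloured. The maturation genes lie to the right, 29 of 39 above the dotted threshold line, and the B cell markers mostly to the left.

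The marker genes of the migrating state showed the pattern gene by gene. Ccr7, the receptor that guides DC into and within the node, was at 964 and 834 CPM with CpG alone and at 1793 and 1318 CPM with OVA. Both OVA libraries were higher, by 0.81 ± 0.21 (SE) on the log2 scale (adjusted p = 0.148), and DESeq2 called it (adjusted p = 0.0223).

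Ccl22, which mature DC secrete and which attracts regulatory and other T cells with the receptor Ccr4, was at 99.7 and 85.0 CPM with CpG alone and at 272 and 226 CPM with OVA. The groups did not overlap and the difference was 1.46 ± 0.37 (SE) on the log2 scale (adjusted p = 0.148). DESeq2 did not call it, with an adjusted p of 0.319. Serpinb6b, a protease inhibitor of the serpin family, was at 219 and 163 CPM and at 462 and 395 CPM in the same order. Its difference was 1.20 ± 0.25 (SE, adjusted p = 0.107), which DESeq2 called (adjusted p = 0.0113). Serpinb6a, a related gene, was at 24.5 and 39.1 CPM with CpG alone and at 61.4 and 67.7 CPM with OVA, and reads that fit both copies cannot be assigned with certainty.

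The regulatory sequence of 3 of the maturation genes described here, a chemokine, a serpin and a cytoskeletal gene with a window in the RefSeq table, is shown so that genes with like differences can be set side by side: the 250 bases before the start of Ccl22, Serpinb6b and Fscn1, from RefSeq (GRCm38.p6), 5′ to 3′ on the strand of the gene. Capitals mark the letters TATAAA of the TATA box, searched on both strands and chosen after the windows had been seen.
Ccl22: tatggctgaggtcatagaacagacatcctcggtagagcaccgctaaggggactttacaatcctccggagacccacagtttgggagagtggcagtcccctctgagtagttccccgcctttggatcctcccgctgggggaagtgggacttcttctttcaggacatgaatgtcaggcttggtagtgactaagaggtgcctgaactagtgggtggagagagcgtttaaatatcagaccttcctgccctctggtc
Serpinb6b: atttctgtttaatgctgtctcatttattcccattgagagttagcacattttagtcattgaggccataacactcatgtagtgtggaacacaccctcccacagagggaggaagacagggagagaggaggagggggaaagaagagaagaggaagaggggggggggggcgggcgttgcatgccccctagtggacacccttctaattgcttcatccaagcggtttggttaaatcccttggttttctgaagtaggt
Fscn1: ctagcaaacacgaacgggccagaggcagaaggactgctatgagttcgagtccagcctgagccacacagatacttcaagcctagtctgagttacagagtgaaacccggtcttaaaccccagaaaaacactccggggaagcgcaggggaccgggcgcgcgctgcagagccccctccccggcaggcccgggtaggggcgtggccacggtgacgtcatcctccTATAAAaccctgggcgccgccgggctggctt
These windows lie at chr8:94745434-94745683 on the plus strand, chr13:32965011-32965260 on the plus strand and chr5:142960105-142960354 on the plus strand. The counts themselves use the mm9 build. The letters stood in 2 of the 30 tested maturation genes with a window (6.67%), Fscn1 and Eno2, in 7.25% of the 7299 tested genes with a window and in 14.3% of the 27025 genes of the RefSeq table. The Fscn1 match began 31 bases before the start. The Eno2 match was on the opposite strand, 201 bases before the start. A match describes letters in this window only. Eno2, a glycolytic enzyme, was at 31.0 and 34.6 CPM with CpG alone and at 83.1 and 79.7 CPM with OVA (difference 1.31 ± 0.34 SE, adjusted p = 0.156).

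Cytoskeletal and signalling genes of mature DC followed. Fscn1, which bundles actin in the dendrites of mature DC, was at 763 and 412 CPM with CpG alone and at 1403 and 1179 CPM with OVA (difference 1.16 ± 0.33 SE, adjusted p = 0.205). The protein kinase C substrate Marcks was at 982 and 562 CPM and at 1938 and 1144 CPM, which DESeq2 called (adjusted p = 0.0266). Its relative Marcksl1 was at 204 and 152 CPM and at 381 and 300 CPM. In each of these genes the lower OVA library was still above the higher CpG-only library. Among the 37 migration and cytoskeleton genes tested 23 had a higher fitted level with OVA. Of these 11 had p under 0.05, where 5.89% of all genes did, and 1 gene had a lower level with p under 0.05. The 11 were 6 without CpG-only replicate 2 and 5 without OVA replicate 1. The median of the list was 0.12 (0.21 without CpG-only replicate 2), and the differences ranged from -0.58 to 1.16.

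Arc, known as an activity-induced gene of neurons and also made by migratory DC, had the smallest p of the maturation list (adjusted p = 0.0900). It was at 39.2 and 31.6 CPM with CpG alone and at 94.7 and 105 CPM with OVA, a difference of 1.54 ± 0.27 (SE). Socs2, an inhibitor of cytokine signalling, was at 355 and 265 CPM and at 701 and 512 CPM, and the transcriptional repressor Etv3 at 260 and 248 CPM and at 431 and 443 CPM. DESeq2 called Socs2 (adjusted p = 0.0146) and Etv3 (adjusted p = 0.0223). Il4i1, an amino acid oxidase, was at 474 and 287 CPM and at 966 and 719 CPM. Cd83, a surface protein of mature DC, was at 127 and 144 CPM and at 253 and 232 CPM (difference 0.84 ± 0.24 SE, adjusted p = 0.202). Markers of migratory DC and Langerhans cells, some of them also maturation genes, had a higher fitted level with OVA in 10 of 10 tested, with a median of 0.99. Of these 6 had p under 0.05, where 5.89% of all genes did. The 10 of the 39 maturation genes without a p under 0.05 included Icosl, named after its values were seen and the one gene with a lower fitted level, at 70.3 and 127 CPM with CpG alone and at 78.0 and 115 CPM with OVA, which turned to a higher level without CpG-only replicate 2 (0.45) or OVA replicate 1 (0.14).

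**Figure D2:**
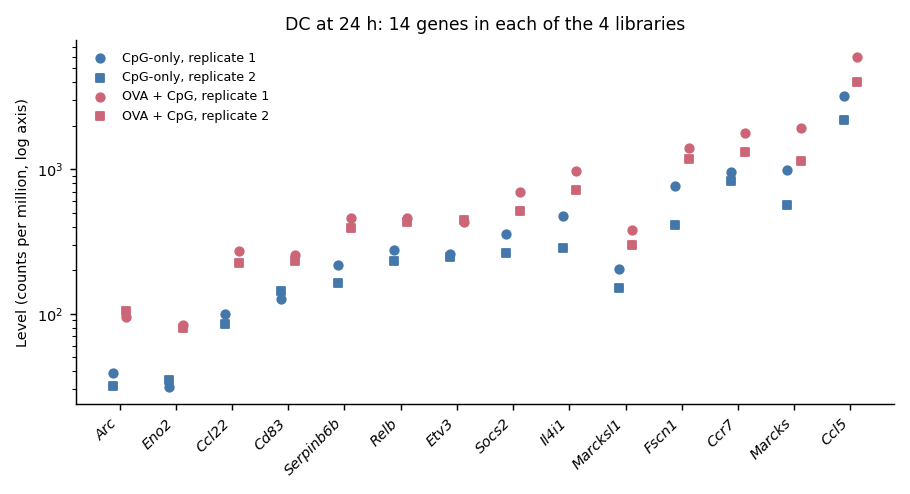
Level of 14 maturation genes (y axis, CPM on a log axis) in each of the 4 libraries at 24 h, blue for CpG alone and red for OVA, with circles for replicate 1 and squares for replicate 2. In each of these 14 picked genes both OVA libraries lie above both CpG-only libraries, as for Ccr7 at 1793 and 1318 against 964 and 834 CPM. This held for 34 of the 39 tested maturation genes.

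The same direction was seen in genes of NF-kB signalling, although Relb, described here, is also a maturation gene. Of 28 NF-kB genes tested 22 had a higher fitted level with OVA, 12 with p under 0.05, where 5.89% of all genes did, and 1 had a lower level with p under 0.05; the median was 0.34. The 12 were 6 without OVA replicate 1, 7 without CpG-only replicate 2 and 7 with DESeq2, while the median stayed between 0.30 and 0.49 with 1 library left out. Relb, the subunit of the alternative NF-kB pathway, was at 275 and 232 CPM with CpG alone and at 459 and 430 CPM with OVA (difference 0.83 ± 0.21 SE, adjusted p = 0.146), and DESeq2 called it (adjusted p = 0.0420). Map3k14, the kinase that starts this pathway, was at 62.1 and 69.2 CPM and at 142 and 110 CPM (adjusted p = 0.134). The adaptor Traf1 was at 337 and 320 CPM and at 611 and 530 CPM, called by DESeq2 (adjusted p = 0.0280). The survival gene Bcl2a1b was at 73.5 and 50.4 CPM and at 168 and 124 CPM, but it has near-identical copies among which reads may be split. For Relb, Map3k14, Traf1 and Bcl2a1b both OVA libraries were above both CpG-only libraries.

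Survival and stress genes gave fewer members. Of 32 apoptosis and survival genes 26 had a higher fitted level with OVA, where 47.8% of all genes did, and the median was 0.28. None was lower with p under 0.05, and 9 were higher with p under 0.05, where 5.89% of all genes were. Without OVA replicate 1 the count was 4 and the median 0.10, and without CpG-only replicate 2 they were 6 and 0.13. Gadd45b, a stress and NF-kB target, was at 724 and 413 CPM with CpG alone and at 1605 and 1058 CPM with OVA (difference 1.26 ± 0.26 SE, adjusted p = 0.107), called by DESeq2 (adjusted p = 0.00418). Cdkn1a, the cell cycle inhibitor p21, was at 152 and 105 CPM and at 298 and 236 CPM, also called (adjusted p = 0.0116). The cell death gene Pmaip1 was at 45.8 and 24.8 CPM and at 93.4 and 73.7 CPM. In all 3 the groups did not overlap.

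Costimulatory molecules, which T cells read through Cd28 and Cd40 ligand, were mixed. Of 9 tested genes 7 had a higher fitted level with OVA, 3 with p under 0.05, where 5.89% of all genes did. A lower level with p under 0.05 was seen in 1, where 4.29% of all genes had one. The median was 0.27, and 0.45 without CpG-only replicate 2, where 1 gene was higher with p under 0.05. Cd40 was at 136 and 188 CPM with CpG alone and at 345 and 237 CPM with OVA (difference 0.85 ± 0.26 SE, adjusted p = 0.230). Cd80 was at 3.27 and 6.02 CPM and at 17.9 and 14.5 CPM (adjusted p = 0.538), low levels in all 4 libraries. Cd86 overlapped between the groups, at 76.8 and 69.2 CPM and at 98.5 and 73.7 CPM (adjusted p = 0.847). Cd40 and Cd80 thus did not overlap between the groups, while Cd86 did. The inhibitory ligand Cd274 also overlapped, at 271 and 229 CPM and at 295 and 234 CPM (adjusted p = 0.902), and its sign changed when 1 library was left out. The adhesion molecule Icam1 was at 260 and 185 CPM and at 349 and 346 CPM (adjusted p = 0.214), and Pvr, a ligand of inhibitory and activating T cell receptors, at 47.4 and 44.4 CPM and at 111 and 89.4 CPM (adjusted p = 0.124).

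Secreted signals were likewise split. Of 15 cytokine genes tested 12 had a higher fitted level, 3 with p under 0.05, where 5.89% of all genes did. Of 14 chemokine genes 8 did, 3 with p under 0.05 higher and 1 lower, where 4.29% of all genes were lower. Both lists turned on the CpG-only libraries. The cytokine median of 0.57 was 1.06 without CpG-only replicate 1 and 0.07 without CpG-only replicate 2. The chemokine median of 0.18 was 1.42 without CpG-only replicate 1 and turned to -0.15 without CpG-only replicate 2. It was 0.07 without OVA replicate 1 and 0.09 without OVA replicate 2. Il15, which sustains memory and killer cells, was at 116 and 63.2 CPM with CpG alone and at 161 and 126 CPM with OVA (adjusted p = 0.389), and its presenting receptor Il15ra at 155 and 127 CPM and at 275 and 207 CPM (adjusted p = 0.268). Ebi3, a subunit of interleukin-27, was at 49.0 and 17.3 CPM and at 66.5 and 66.4 CPM (adjusted p = 0.295). Il12b, the interleukin-12 subunit, overlapped, at 76.8 and 10.5 CPM and at 90.8 and 62.8 CPM (adjusted p = 0.613). Il12b and Ebi3 were thus set apart mainly from CpG-only replicate 2.

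Of the chemokines beside Ccl22, Ccl5, which attracts activated T cells, was at 3201 and 2196 CPM with CpG alone and at 5984 and 3997 CPM with OVA, called by DESeq2 (adjusted p = 0.0385). The membrane chemokine Cxcl16 was at 320 and 202 CPM and at 572 and 429 CPM (adjusted p = 0.238). For both genes the OVA libraries were above the CpG-only libraries. Il2ra, the interleukin-2 receptor chain Cd25, was at 99.7 and 79.0 CPM and at 196 and 147 CPM (difference 0.98 ± 0.23 SE, adjusted p = 0.134).

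Outside the maturation list, the smallest p of all genes belonged to the neutrophil gene Camp, described with the neutrophil markers, and the next to Dnase1l3. Dnase1l3, a secreted DNase of DC and macrophages, was at 124 and 114 CPM with CpG alone and at 279 and 271 CPM with OVA (difference 1.23 ± 0.20 SE, adjusted p = 0.0608), and DESeq2 called it (adjusted p = 0.00418). The semaphorin receptor Plxnd1 was at 78.4 and 77.5 CPM and at 182 and 170 CPM, and Sema4a at 132 and 120 CPM and at 224 and 267 CPM. DESeq2 called both, with adjusted p of 0.0104 for Plxnd1 and 0.0120 for Sema4a. In these genes the replicates of a group lay close together and the groups apart, which naming genes by small p and no overlap favours.

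Glycolysis and cytoskeleton genes gave further examples. Pfkfb3, an activator of glycolysis, was at 423 and 284 CPM with CpG alone and at 682 and 690 CPM with OVA (difference 0.98 ± 0.21 SE, adjusted p = 0.121), called by DESeq2 (adjusted p = 0.0141). The 19 tested glycolysis genes as a list had a median of -0.01, with 9 higher and 3 of them with p under 0.05. The tubulins Tuba1c, at 131 and 99.3 CPM and at 233 and 231 CPM, and Tubb2a, at 96.4 and 82.8 CPM and at 184 and 167 CPM, were also higher in both OVA libraries. Arhgap22, a regulator of Rac, was at 159 and 80.5 CPM and at 328 and 293 CPM. Tmem39a was at 81.7 and 93.3 CPM and at 203 and 185 CPM.

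Genes of antigen handling followed no single direction. Of 29 cathepsin and endosome genes tested 22 had a higher fitted level with OVA, with a median of 0.22. Of these 4 had p under 0.05, where 5.89% of all genes did, and 1 gene had a lower level with p under 0.05. Cst3, the cathepsin inhibitor cystatin C that is abundant in DC, was at 1626 and 1051 CPM with CpG alone and at 3034 and 2256 CPM with OVA, called by DESeq2 (adjusted p = 0.0120). The lysosomal reductase Ifi30 was at 752 and 461 CPM and at 1192 and 841 CPM (adjusted p = 0.261). The 19 tested class II genes had a median of -0.19, with 2 higher and 6 lower at p under 0.05, against 5.89% and 4.29% of all genes. Without CpG-only replicate 2 the median turned to 0.28, with 3 higher and none lower. Ciita, their master regulator, was at 24.5 and 58.7 CPM and at 8.95 and 21.7 CPM (adjusted p = 0.299). H2-DMb1 was at 36.0 and 102 CPM and at 29.4 and 39.9 CPM, so that CpG-only replicate 2 stood above the other 3 libraries for both genes, as it did for B cell markers.

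The genes lower with OVA were led by Slfn1, a Schlafen family gene, at 363 and 618 CPM with CpG alone and at 230 and 225 CPM with OVA (difference -1.10 ± 0.23 SE, adjusted p = 0.107). DESeq2 called it (adjusted p = 0.0113), as it did Treml2, at 240 and 304 CPM and at 143 and 142 CPM (adjusted p = 0.0280). In both genes no OVA library reached the lower CpG-only library. Tnfsf8, the Cd30 ligand, was at 32.7 and 34.6 CPM and at 10.2 and 10.9 CPM (adjusted p = 0.135). Cd28, the costimulatory receptor of T cells, was at 67.0 and 108 CPM and at 42.2 and 42.3 CPM (adjusted p = 0.135). The T cell transcription factor Lef1 was at 106 and 247 CPM and at 81.9 and 94.2 CPM. Of 20 T cell markers tested 2 were higher and 18 lower, with a median of -0.20. Of these 1 and 7 had p under 0.05, against 5.89% and 4.29% of all genes. The 7 were 0 without CpG-only replicate 2 and 3 without OVA replicate 1, so that count rested on these libraries.

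B cell markers moved with 1 library. Summed, they were at 1024 and 3679 CPM with CpG alone and at 824 and 1603 CPM with OVA, so CpG-only replicate 2 was highest and the other 3 libraries overlapped. Of 12 tested 11 had a lower fitted level with OVA, 9 with p under 0.05, where 4.29% of all genes did, and the median was -1.33. Without CpG-only replicate 2 the median was 0.18 and none was lower with p under 0.05. Cr2, a complement receptor of B cells, was at 13.1 and 153 CPM and at 6.40 and 8.46 CPM, and Ms4a1, the B cell antigen CD20, was at 75.2 and 377 CPM and at 43.5 and 141 CPM. The part of B cell RNA in the genes lower with OVA was not tested.

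Neutrophil markers had large fitted differences. Their sum was 892 and 108 CPM with CpG alone and 466 and 2674 CPM with OVA, so the groups overlapped and OVA replicate 2 stood apart. Of 12 tested 11 had a higher fitted level, 7 with p under 0.05, where 5.89% of all genes did. The median was 2.09, and it fell to 0.18 without OVA replicate 2 and to 0.95 without CpG-only replicate 2. Camp, an antimicrobial peptide of neutrophil granules, was at 3.27 and 0 CPM with CpG alone and at 26.9 and 123 CPM with OVA. Ltf, the granule protein lactoferrin, was at 6.54 and 1.51 CPM and at 20.5 and 116 CPM, and Ngp at 16.3 and 6.77 CPM and at 37.1 and 321 CPM. DESeq2 called all 3, with adjusted p of 0.00418 for Camp, 0.0183 for Ltf and 0.0146 for Ngp. Lcn2, another granule gene, overlapped, at 55.6 and 6.77 CPM and at 47.3 and 181 CPM.

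The maturation list was also fitted with each library left out, where the lone library of its group is assumed to vary like the other groups. Without OVA replicate 2, the library high in neutrophil markers, the median was 1.07 and 38 of the 39 genes had a higher fitted level. Without CpG-only replicate 2, the library high in B cell markers, the median was 0.66 and 36 genes did so. Without OVA replicate 1, the library with the highest maturation sum, the median was 0.68 and 37 genes did so.

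**Figure D3:**
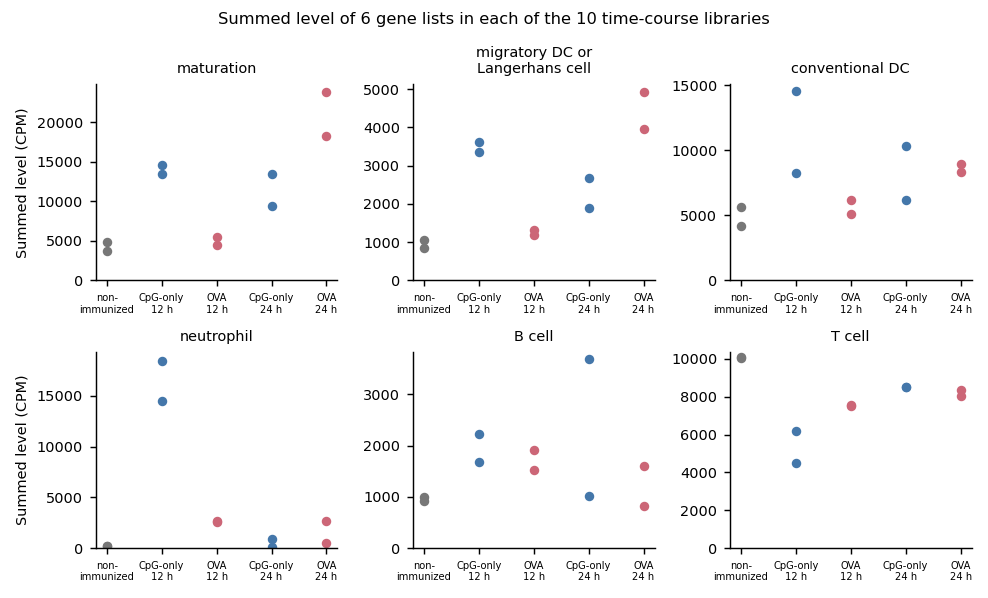
Summed level (y axis, CPM, from 0) of 6 gene lists in each of the 10 libraries of the time course, grouped on the x axis, with grey for non-immunized, blue for CpG alone and red for OVA. The maturation sum is highest in the 2 OVA libraries at 24 h (23834 and 18248 CPM), while neutrophil markers peak with CpG alone at 12 h (14456 and 18415 CPM).

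Interferon-stimulated genes mostly had a lower fitted level with OVA, with p under 0.05 in a small number of them. Of 47 type I interferon genes tested 6 had a higher fitted level with OVA and 41 a lower one, against 52.2% of all genes with a lower one. Of the 41, 4 had p under 0.05, where 4.29% of all genes did, and 1 without CpG-only replicate 2; none was higher with p under 0.05. The median was -0.22, and -0.08 without OVA replicate 2. Oas2, which senses double-stranded RNA, was at 373 and 682 CPM with CpG alone and at 293 and 376 CPM with OVA (adjusted p = 0.304). Ifi27l2a was at 1856 and 3000 CPM and at 1498 and 1712 CPM (adjusted p = 0.320). Of 29 interferon-gamma genes 9 were higher and 20 lower, 2 of the latter with p under 0.05 (5 without CpG-only replicate 1), and the median was -0.14, which was -0.0022 without OVA replicate 2. Ribosomal protein genes had a lower fitted level in 48 of 50, 5 with p under 0.05, where 4.29% of all genes did, with a median of -0.31. Their median was -0.35 without CpG-only replicate 1 and -0.19 without CpG-only replicate 2. Oxidative phosphorylation genes had a median of 0.02 with no p under 0.05 among 50.

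For the maturation list the difference between antigen and adjuvant alone was of opposite sign at 12 h. The 4 libraries of 12 h are not shared with 24 h. Not every list changed sign, with class II medians of -0.19 at 24 h and -0.80 at 12 h. At 12 h the maturation sum was 13468 and 14562 CPM with CpG alone and 5497 and 4432 CPM with OVA, against 4891 and 3733 CPM in non-immunized mice. By 24 h it was 13410 and 9362 CPM with CpG alone. With OVA the 24 h libraries were above every other library of the time course. At 12 h edgeR called 232 genes (2.46%), 71 higher (0.753%) and 161 lower (1.71%) with OVA, and 28 of 39 maturation genes were among those lower, with a median of -1.53. Markers of other cells moved at 12 h as well. Conventional DC markers had a lower fitted level with OVA in 13 of 14, 3 of them called, with a median of -0.76, and their sums were 8260 and 14568 CPM with CpG alone and 5125 and 6157 CPM with OVA. T cell markers had a higher one in 15 of 20, 2 of them called and 1 called lower, with a median of 0.41, and their sums were 6177 and 4487 CPM with CpG alone and 7531 and 7589 CPM with OVA. The part of these markers in the maturation genes' difference at 12 h was not tested. Leaving out 1 of the 4 libraries of 12 h gave between 24 calls (without OVA replicate 2) and 168.

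The change of the difference between the times was tested in the same fit. It was called for 319 genes (3.38%), 254 in the higher direction (2.69%) and 65 in the lower (0.689%), and for between 155 genes (without CpG-only replicate 2 of 12 h) and 744 (without CpG-only replicate 1 of 24 h) when 1 library was left out. Of 39 maturation genes 31 were called, all in the higher direction, with a median of 2.43. For Ccr7, at 756 and 904 CPM with CpG alone and 292 and 293 CPM with OVA at 12 h, the difference changed by 2.30 ± 0.30 (SE, adjusted p = 0.000395). For Serpinb6b, at 215 and 245 CPM and at 76.5 and 38.2 CPM at 12 h, it changed by 3.13 ± 0.37 (SE, adjusted p = 0.00017). For Ccl22, at 341 and 276 CPM and at 125 and 68.1 CPM at 12 h, it changed by 3.09 ± 0.52 (SE, adjusted p = 0.00281).

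Neutrophil markers moved between the times as well. At 12 h their sum was 14456 and 18415 CPM with CpG alone and 2660 and 2616 CPM with OVA, and at 12 h 6 of 12 tested were called lower with OVA. Their part in the maturation genes' change was not tested. Type I interferon genes did the reverse: 14 of 47 were called higher with OVA at 12 h, and 9 were called in the lower direction for the change between the times. Plxnd1, Sema4a and Cdkn1a had 12 h differences of -0.23, -0.31 and -0.24, none called, and a called change to 24 h.

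**Figure D4:**
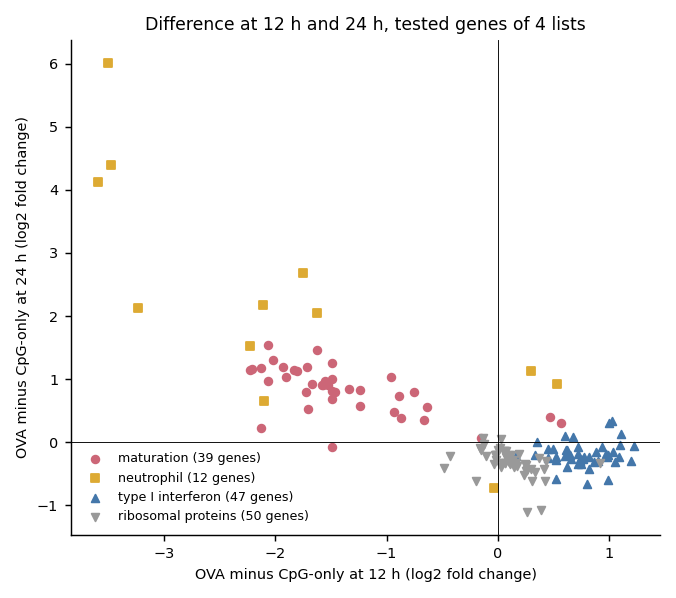
OVA minus CpG-only difference (log2 fold change) at 12 h (x axis) and 24 h (y axis) for the tested genes of the maturation (39), neutrophil (12), type I interferon (47) and ribosomal protein (50) lists. Maturation genes lie mostly below 0 at 12 h and above 0 at 24 h, and interferon genes mostly above 0 at 12 h and below 0 at 24 h.

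In the separate experiment at 20 h OVA particles were compared with BSA particles, another protein antigen, in 5 libraries a group, which is not the same contrast. No gene was called by edgeR (0%, adjusted p of at least 0.528 for all 9159 genes), 561 genes (6.13%) had an unadjusted p under 0.05, and DESeq2 called 6. Of 40 maturation genes 5 had a higher level with p under 0.05, where 3.58% of all genes did, and the median was 0.11. The interferon lists stood further apart at 20 h, with the sign opposite to that at 24 h. Of 46 type I interferon genes 46 had a higher fitted level with OVA than with BSA, 30 with p under 0.05, with a median of 0.74, and of 26 interferon-gamma genes 26 did, 21 with p under 0.05, with a median of 0.69. Ccr7 ranged from 2713 over a median of 3467 to 4663 CPM with OVA and from 2006 over 2382 to 4010 CPM with BSA (difference 0.42 ± 0.19 SE, adjusted p = 0.766), and the groups overlapped. Ccl22 ranged from 2042 over 2314 to 3001 CPM with OVA and from 2304 over 2604 to 2989 CPM with BSA (adjusted p = 0.971). Serpinb6b ranged from 968 over 1227 to 1519 CPM and from 1083 over 1179 to 1376 CPM (adjusted p = 0.996). For both genes the ranges of the groups overlapped. Relb ranged from 1179 over 1233 to 1953 CPM and from 1013 over 1228 to 1410 CPM (adjusted p = 0.925). Relb overlapped as well. The experiments were separate, so levels of single genes are not compared between them, and only the DC and T cell marker sums above are set side by side.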

How the data were processed

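RNA was sequenced from sorted lymph node DC. Per the submitters' processing notes, the tools were bcl2fastq, HISAT 0.1.6 and HOMER, and the build was mm9. The authors deposited raw counts per gene, a second block of values that was not used, and a log2 fold change and an adjusted p-value per comparison, per the file headers. The 4 columns that match no sample were not used. Libraries held 612017 to 1329203 counts in the time course and 367209 to 2052904 at 20 h.

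Counts of the 10 time course libraries were fitted with edgeR 4.0.16 (TMM, filterByExpr by group, quasi-likelihood test, Benjamini-Hochberg over all genes, threshold 0.05), and the 15 libraries at 20 h separately. DESeq2 1.42.0 was an alternative, beside other filters, scalings, a replicate block and each library left out. Work was done in R 4.3.3 and in Python 3.11.15 (numpy 2.4.6, pandas 2.3.3, matplotlib 3.10.9 for figures). On simulated data for the time course, over 9129 genes, 42% of 2-fold and 90% of 4-fold changes were recovered with 5 false calls. The simulation took the spread of each gene from the trend over expression level and held no library set apart from its replicate. It changed only genes above a minimum count, so recovery in the real libraries may be lower.

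The 38 gene lists and the members were chosen with earlier results of these data known. Some genes stand in several lists, as Ccr7 does in those of maturation and T cell markers. Counts of different lists are therefore not independent of each other. Named genes are those with adjusted p under 0.05 (none), the 14 higher and 10 lower of smallest p with a mean of at least 10 CPM, no overlap and a clear gene model, up to 4 of smallest p per list with at least 3 tested members, and 16 genes always followed. The text gives a selection. Promoter windows came from RefSeq, where 7299 tested genes were matched by symbol; longer NF-kB and interferon response motifs were also searched and are not reported here.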

Additional observations from a re-analysis of the deposited data

Results flagged for a closer look

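In 28 named genes the difference between OVA and CpG-only particles was itself different at 24 h and at 12 h, by the interaction test of edgeR with adjusted p under 0.05. Over all 9428 genes 319 (3.38%) were called. All 28 genes followed here were called, and they were chosen with these data known, so their number is only a description. The values below are the log2 difference at 24 h minus that at 12 h. Among maturation genes it was 2.30 for Ccr7, 3.09 for Ccl22, 3.13 for Serpinb6b, 2.26 for Etv3, 3.60 for Arc, 3.33 for Eno2 and 2.49 for Ccl5. For genes of the DC lineage it was 3.13 for Flt3, the receptor that maintains DC, and 3.10 for Batf3, a transcription factor of cross-presenting DC. Of 14 conventional DC markers tested the change was positive in 12 and negative in 2, with a median of 0.93. Of 12 markers of cross-presenting DC it was positive in 6 and negative in 6, with a median of -0.0062. At 24 h itself the median differences of these lists were 0.07 and -0.07. For other genes higher with OVA at 24 h it was 3.68 for Dnase1l3, 2.94 for Tmem39a, 2.64 for Gadd45b, 2.69 for Pfkfb3, 2.31 for Cst3 and 2.96 for Cxcl16. It was smaller for Plxnd1 at 1.42, Sema4a at 1.29 and Cdkn1a at 1.35. For the neutrophil gene Camp it was 9.52, a fitted value that depends on the prior count because the CpG-only libraries of 24 h held hardly any Camp counts.

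In the other direction it was -1.85 for Slfn1, -1.47 for Treml2 and -2.32 for Igfbp4. Interferon-induced genes also changed this way, by -1.58 for Ifit2, -1.24 for Parp14, -1.46 for Oas2, -1.46 for Gbp7, -1.54 for Iigp1 and -1.46 for Tgtp2, a gene with a near-identical copy. At 20 h Relb was at 1953 CPM in 1 OVA library, far above the next at 1367 CPM, in 1 of 8 groups looked at. Chance sets a library apart in this way in about 1 of 20 groups.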

How the results depend on the processing

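The count of 0 genes at 24 h was 37 with DESeq2, 8 with a mean of at least 1 CPM, 240 without a low-count filter, 1 with robust shrinkage, and 0 to 453 when 1 library was left out. Genes at an unadjusted p under 0.05 (959) were 495 with DESeq2, 596 with only the libraries compared, and 583 to 1615 when 1 library was left out. At 12 h the 232 calls were 469 without a filter, 413 with only the libraries compared and 24 to 168 with 1 library left out, and the 1213 genes at p under 0.05 were 752 with DESeq2 and 801 to 1271. For the change between the times, 319 calls were 594 without a filter and 155 to 744, and 1407 genes at p under 0.05 were 929 with DESeq2. At 20 h the count of 0 was 6 with DESeq2, 2 without a filter and 0 to 4, and the 561 genes at p under 0.05 were 857 without a filter and 356 to 975. The cause was not tested.

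Of 59 named genes at 24 h, 55 kept their direction under every alternative. Many were named for a small p or no overlap in these same libraries. The count thus follows in part from that choice and is not a measure of robustness. With 1 library left out, Cd86 ranged from -0.012 to 0.52, Cd274 from -0.12 to 0.32, Ms4a1 from -2.35 to 0.29, Icosl from -0.37 to 0.45, the B cell median from -2.44 to 0.18 and Serpinb6b at 20 h from -0.068 to 0.097. Of 28 genes with a called change between the times, 19 kept call and direction under every alternative. The deviations of same-numbered libraries from their group means correlated by 0.149 between the groups of 24 h. Between other groups and a 24 h group they correlated by -0.06 to 0.04, so the numbers were not taken to pair the libraries. The replicate block gave 0 calls at 24 h, 255 at 12 h, 374 for the change and 0 at 20 h, where Serpinb6b was at -0.000422. Depth left Cd80 with 2 to 14 counts a library at 24 h, and Camp with 2 and 0 counts in the CpG-only libraries.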
